A study of Homo sapiens with 6 samples.

Results

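The enzymes described here remove superoxide and peroxides: the 6 peroxiredoxins PRDX1 to PRDX6, the superoxide dismutases SOD1 and SOD2, catalase (CAT) and the mitochondrial thioredoxin TXN2. They were taken by gene symbol, which found all 10 among the 63643 rows of a gene count table. The RNA came from HEK293T, an established cell line derived from human embryonic kidney, in which the glyoxalase gene GLO1 is deleted per the labels. The deletion is shared by both groups, and the sources used here do not say whether the line is 1 clone. Cells received 60 µM methylglyoxal (MGO), a reactive aldehyde made as a by-product of glycolysis, for 4 h in the MGO group (3 libraries), and the Control group (3 libraries) was left untreated. The MGO library names carry a figure other than this dose, with no meaning given in the sources used here. The study asked whether MGO changes transcripts of the integrated stress response.

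Superoxide dismutases turn superoxide into hydrogen peroxide, SOD1 with copper and zinc in the cytosol and SOD2 with manganese in the mitochondrial matrix. Peroxiredoxins then reduce hydrogen peroxide with a reactive cysteine, which thioredoxin reduces again, TXN in the cytosol and TXN2 in mitochondria. Catalase, a haem enzyme of peroxisomes, breaks down hydrogen peroxide without a reductant. In many cells these enzymes are among the abundant housekeeping proteins, and SOD2 is known as the member most readily induced by cytokines.

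Total counts lay between 128270160 and 138680220 in MGO libraries and between 117427883 and 157639431 in Control libraries. GLO1 had 101.8 ± 4.53 CPM (counts relative to the TMM-scaled library size) in MGO and 37.27 ± 0.885 CPM in Control libraries (SD, n = 3 each), and since the deleted part is not stated this checks neither the deletion nor the labels. The 10 markers known for HEK293T cells had summed levels of 2370 to 2636 CPM in MGO and 1415 to 1456 CPM in Control libraries. In MGO libraries the highest means were those of KRT8, VIM, SOX11 and KRT18 (981, 699, 390 and 352 CPM). Means of PAX2, LHX1 and NEFM were low, at 1.71, 1.22 and 0.555 CPM in MGO and 6.59, 0.975 and 1.46 CPM in Control libraries. The 10 markers did not move together: KRT8, KRT18 and VIM rose, PAX2, NEFM, CDH2 and NEFL fell, SOX11 and LHX1 did not pass the test, and PAX8 was at 42 counts in all. The 6 blood markers summed to 0.471 to 0.845 CPM in MGO and 0.175 to 0.317 CPM in Control libraries, with HBB at 0. The upper MGO value is that of replicate 1, where LYZ had 74 counts against 10 and 11 in the other MGO libraries, and without it the highest was 0.478 CPM. The 5 fibroblast markers summed to 5.70 to 6.15 CPM in MGO and 16.3 to 17.5 CPM in Control libraries, and the 3 liver markers to 0.239 to 5.69 CPM in MGO and 0.132 to 0.148 CPM in Control libraries. There too MGO replicate 1 stood apart, with 560 counts of ALB against 5 and 8 in the other MGO libraries, and without it the highest was 0.262 CPM. The part of these differences in the results was not tested. In bulk RNA, fewer cells with a transcript and less of it per cell cannot be told apart. The labels do not tie the replicates to separate cultures, and p-values therefore reflect a spread among these libraries that may be technical.

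With MGO, 8 members rose and none fell at an adjusted p under 0.05 in edgeR's quasi-likelihood test, and SOD2 and CAT did not pass it. Across all 23109 genes tested, 38.8% rose and 40.5% fell, or 79.3% together. The 8 rises ranged from 1.53-fold for PRDX3 to 2.87-fold for PRDX4. The median log2 fold change of the 10 members, all of which passed the filter on low counts, was 1.26, against −0.02 over all genes tested. In all 10 every MGO library lay above every Control library. Groups did not overlap for 81.5% of genes tested, in either direction. The 10 genes took 0.340 ± 0.0115% of a library's counts in MGO and 0.222 ± 0.00910% in Control libraries (SD, n = 3 each). Such a share is itself scaling by library size alone.

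The size of each change rests on how libraries are scaled. With library size alone in place of TMM, the median of all genes shifted by −0.53 on the log2 scale and all-gene calls were 5673 rises and 12885 falls, in place of 8964 and 9362. There 7 members rose (log2 fold changes of 0.69 to 0.99), SOD2 and CAT fell by 0.43 and 0.39 on the log2 scale, and PRDX3 lost its call (0.086, edgeR adjusted p = 0.216). Upper quartile scaling shifted the median by 0.17, and all-gene calls were 10124 rises and 8312 falls. There all 10 members rose, SOD2 and CAT among them (0.27 and 0.31), beside an all-gene median of 0.15.

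**Figure D1:**
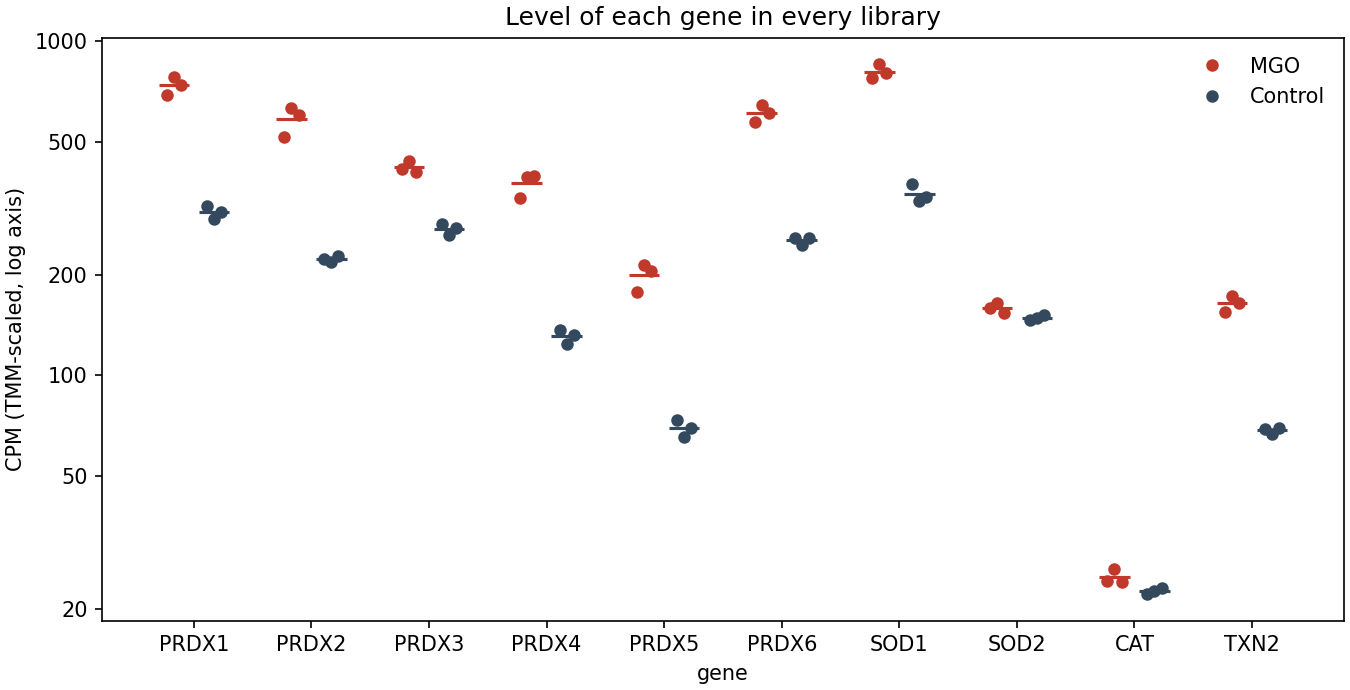
Level of each gene in CPM (TMM-scaled, log axis) in every library, with MGO left of Control for each gene; points are libraries and bars the means of 3. The MGO points stand clear above the Control points for 8 genes, while for SOD2 and CAT they lie just above them.

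The starts of 4 genes are shown because they carry the largest and smallest rises among the members (PRDX4 and PRDX3) and the pair that did not pass the test (SOD2 and CAT). RefSeq promoter windows of GRCh38.p14, from 250 bases before to 50 after a transcription start, were found for 6 of the 10 members: PRDX2, PRDX3, PRDX4, PRDX5, SOD2 and CAT. The windows printed 5′ to 3′ on the gene's strand are chrX:23667243-23667542 (PRDX4, plus strand), chr10:119178763-119179062 (PRDX3, minus strand), chr6:159693192-159693491 (SOD2, minus strand) and chr11:34438684-34438983 (CAT, plus strand). SOD2 has 4 windows, and the one printed is the only one of them with GENCODE transcript starts within 100 bases of its start (6 transcripts). Capitals mark the GC box GGGCGG, the CCAAT box CCAAT and the E-box CACGTG on either strand, and matches that overlap run together.
PRDX4: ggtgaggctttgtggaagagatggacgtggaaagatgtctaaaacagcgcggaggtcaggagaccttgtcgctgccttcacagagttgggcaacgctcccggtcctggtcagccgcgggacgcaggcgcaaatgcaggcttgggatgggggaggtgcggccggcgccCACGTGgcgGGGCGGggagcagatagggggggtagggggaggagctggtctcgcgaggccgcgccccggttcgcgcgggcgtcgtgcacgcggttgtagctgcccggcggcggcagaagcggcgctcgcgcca
PRDX3: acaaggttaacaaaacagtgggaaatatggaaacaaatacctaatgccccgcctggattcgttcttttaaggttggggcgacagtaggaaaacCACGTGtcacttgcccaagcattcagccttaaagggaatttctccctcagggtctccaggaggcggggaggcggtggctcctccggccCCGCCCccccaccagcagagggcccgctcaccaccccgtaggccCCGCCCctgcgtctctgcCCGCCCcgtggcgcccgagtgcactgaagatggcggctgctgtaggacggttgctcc
SOD2: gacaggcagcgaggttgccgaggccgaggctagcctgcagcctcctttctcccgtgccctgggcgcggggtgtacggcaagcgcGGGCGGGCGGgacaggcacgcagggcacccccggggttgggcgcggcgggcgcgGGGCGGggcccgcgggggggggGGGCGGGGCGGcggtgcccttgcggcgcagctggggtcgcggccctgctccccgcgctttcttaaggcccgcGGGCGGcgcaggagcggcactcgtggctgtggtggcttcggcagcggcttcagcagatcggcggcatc
CAT: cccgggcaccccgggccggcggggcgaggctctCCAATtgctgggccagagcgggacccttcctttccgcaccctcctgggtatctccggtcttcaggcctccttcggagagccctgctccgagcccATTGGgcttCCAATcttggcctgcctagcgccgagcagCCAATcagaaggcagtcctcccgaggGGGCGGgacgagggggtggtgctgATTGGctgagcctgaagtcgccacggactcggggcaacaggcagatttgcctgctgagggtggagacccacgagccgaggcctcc
The CAT window held 5 CCAAT boxes and 1 GC box, and the SOD2 window held 6 GC boxes and no CCAAT box. An E-box, the site known for MYC and related factors, stood in the PRDX3 and PRDX4 windows and in no other member window. Among 35116 windows of all genes, 34.6% held CCAAT, 45.0% held GGGCGG and 7.26% held CACGTG. The antioxidant response element core TGACNNNGC, known for NRF2, the AP-1 site TGANTCA and the FOXO site TGTTTAC were also searched on both strands. None of these 3 stood in any of the 10 windows of members, against 13.3%, 7.71% and 3.42% of all windows. A single site can count for both of the first patterns named. These matches describe letters in a short window and say nothing about binding.

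Among the cytosolic peroxiredoxins, PRDX1 and PRDX2 use thioredoxin, and PRDX6 uses a single reactive cysteine that is restored through glutathione. PRDX1 (chromosome 1, 45511036 to 45523047) had 692, 782 and 737 CPM in MGO libraries, against 322, 294 and 308 CPM in Control libraries. All 3 MGO values stood far above the highest Control value, and the log2 fold change was 1.26 (SE 0.07, edgeR adjusted p = 3.88e-09). PRDX2 (chromosome 19, 12796820 to 12801859), which is also the main peroxiredoxin of red blood cells, had 518, 632 and 602 CPM in MGO libraries, against 223, 219 and 228 CPM in Control libraries. MGO replicate 1 was the lowest of its group, the groups were far apart, and the log2 fold change was 1.39 (SE 0.08, edgeR adjusted p = 4.61e-09). PRDX6 (chromosome 1, 173477266 to 173488807) had 575, 643 and 612 CPM in MGO libraries, against 258, 246 and 257 CPM in Control libraries. Its groups did not overlap either, with a log2 fold change of 1.26 (SE 0.06, edgeR adjusted p = 2.3e-09), close to that of PRDX1.

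PRDX4 is the peroxiredoxin of the endoplasmic reticulum (ER), where it passes oxidising equivalents to disulfide isomerases. PRDX4 (chromosome X, 23664262 to 23686399) had 339, 393 and 395 CPM in MGO libraries, against 137, 124 and 132 CPM in Control libraries. The lowest MGO library was still well above the highest Control library, with a log2 fold change of 1.52 (SE 0.08, edgeR adjusted p = 1.8e-09).

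The mitochondrial members did not change by the same amount. PRDX3 (chromosome 10, 119167703 to 119178833), the peroxiredoxin confined to the mitochondrial matrix, had 415, 438 and 406 CPM in MGO libraries, against 284, 262 and 277 CPM in Control libraries. The groups were apart by a smaller step than for the other peroxiredoxins, and the log2 fold change was 0.61 (SE 0.06, edgeR adjusted p = 1.5e-06). PRDX5 (chromosome 11, 64318088 to 64321811), found in mitochondria, peroxisomes and cytosol, had 178, 214 and 206 CPM in MGO libraries, against 73.6, 65.4 and 69.5 CPM in Control libraries. All its MGO libraries were well clear of the Control libraries, and its log2 fold change was 1.52 (SE 0.08, edgeR adjusted p = 2.92e-09). TXN2 (chromosome 22, 36467036 to 36482030), which reduces PRDX3 and PRDX5, had 155, 172 and 165 CPM in MGO libraries, against 68.9, 66.8 and 69.8 CPM in Control libraries. Each group was tight, and the log2 fold change was 1.26 (SE 0.06, edgeR adjusted p = 1.97e-09).

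The superoxide dismutases moved apart. SOD1 (chromosome 21, 31659622 to 31668931) had 777, 853 and 804 CPM in MGO libraries, against 373, 332 and 342 CPM in Control libraries. No MGO library came near the Control range, and the log2 fold change was 1.22 (SE 0.07, edgeR adjusted p = 5.53e-09). SOD2 (chromosome 6, 159669057 to 159745186) had 160, 164 and 153 CPM in MGO libraries, against 146, 148 and 152 CPM in Control libraries. The lowest MGO library and the highest Control library nearly met, and the log2 fold change was 0.10 (95% interval −0.033 to 0.23, edgeR adjusted p = 0.151). CAT (chromosome 11, 34438925 to 34472062) had 24.2, 26.3 and 24.1 CPM in MGO libraries, against 22.1, 22.7 and 23.1 CPM in Control libraries. Its log2 fold change was 0.14 (95% interval −0.0067 to 0.28, edgeR adjusted p = 0.0736), so a change above 0.28 in the log2 ratio lay outside the interval under TMM. Without MGO replicate 1, CAT passed the threshold (log2 fold change 0.16, edgeR adjusted p = 0.0189). For both genes the sign depends on scaling, as given above.

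**Figure D2:**
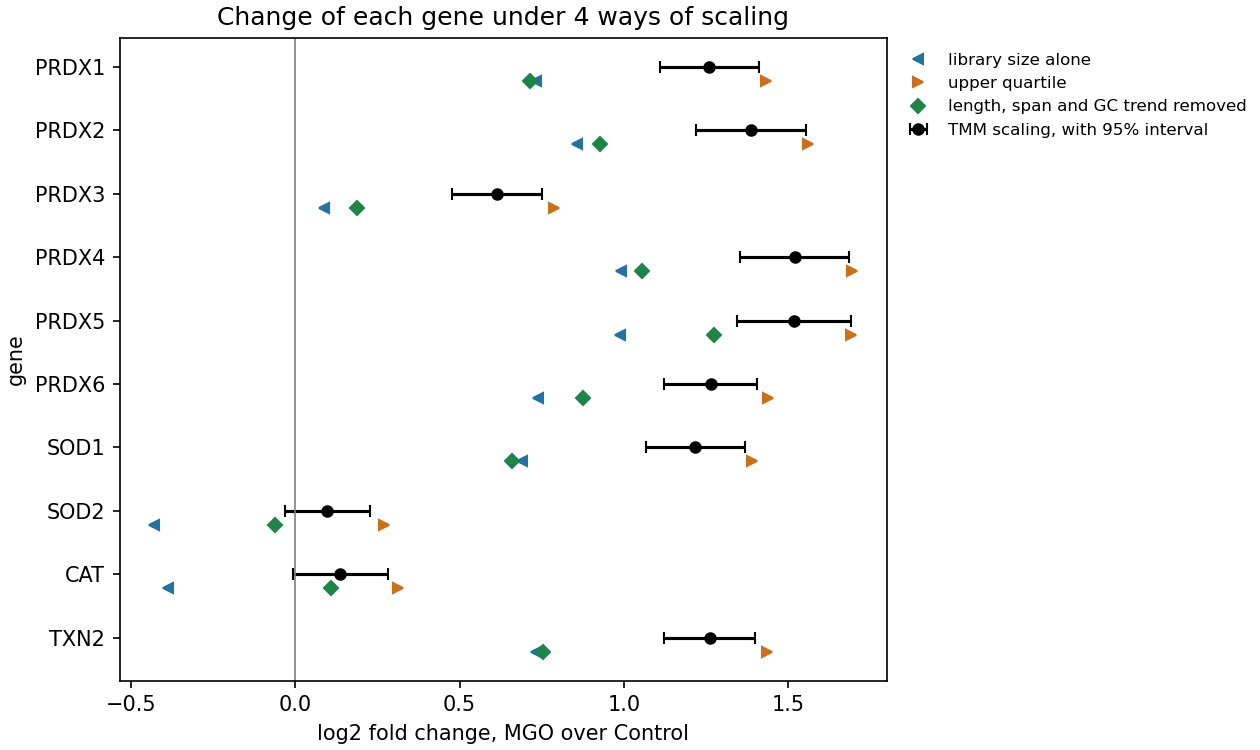
Log2 fold change of MGO over Control for each gene under TMM scaling (black, with the 95% interval of the edgeR fit) and, as points without intervals, under library size alone, upper quartile scaling and with trends on length, span and GC content removed. SOD2 and CAT lie on both sides of 0 between scalings, and PRDX3 is the lowest of the other 8 genes throughout.

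Ratios between members within a library do not depend on a scaling factor shared by all genes of that library. Trends on length, span and GC content do act on them. With these removed, log2 fold changes were 0.66 for SOD1, −0.063 for SOD2 and 0.11 for CAT, in place of 1.22, 0.10 and 0.14. They were 0.71 for PRDX1 and 0.88 for PRDX6, in place of 1.26 for each. The ratio of SOD2 to SOD1 counts was 0.205, 0.193 and 0.191 in MGO libraries, against 0.391, 0.447 and 0.444 in Control libraries. No library of one group entered the range of the other, and the mean log2 ratio differed by −1.12. The ratio of CAT to SOD1 counts was 0.0312, 0.0309 and 0.0300 in MGO libraries, against 0.0593, 0.0683 and 0.0676 in Control libraries, a difference of −1.08 in the log2 ratio. The ratio of PRDX3 to its reductant TXN2 was 2.68, 2.54 and 2.46 in MGO libraries, against 4.13, 3.93 and 3.97 in Control libraries (difference −0.65), and that of PRDX3 to PRDX5 differed by −0.90. By contrast, the ratio of PRDX6 to PRDX1 was 0.831, 0.822 and 0.829 in MGO libraries and 0.801, 0.837 and 0.837 in Control libraries. There the groups overlapped, with a difference of 0.0043 in the log2 ratio (exact permutation p = 1).

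Of the summed counts of the 6 peroxiredoxins, PRDX3 took 15.3, 14.1 and 13.7% in MGO libraries, against 21.9, 21.7 and 21.8% in Control libraries. It was the 1 peroxiredoxin whose share was smaller in MGO. PRDX4 took 12.8 ± 0.462% in MGO and 10.4 ± 0.162% in Control libraries, PRDX2 took 19.9 ± 0.745% in MGO and 17.7 ± 0.477% in Control libraries, and PRDX5 took 6.80 ± 0.225% in MGO and 5.52 ± 0.140% in Control libraries (SD, n = 3 each). The shares of PRDX1 and PRDX6 differed by 0.78 and 0.70 percentage points, and both differences turned negative (−0.26 and −0.087) when counts were first divided by transcript length. Each of the 11 ratios and shares other than PRDX6 to PRDX1 had an exact permutation p = 0.1 (two-sided, adjusted p = 0.11 over the 11), the smallest that 3 against 3 libraries allows, so none could pass 0.05.

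**Figure D3:**
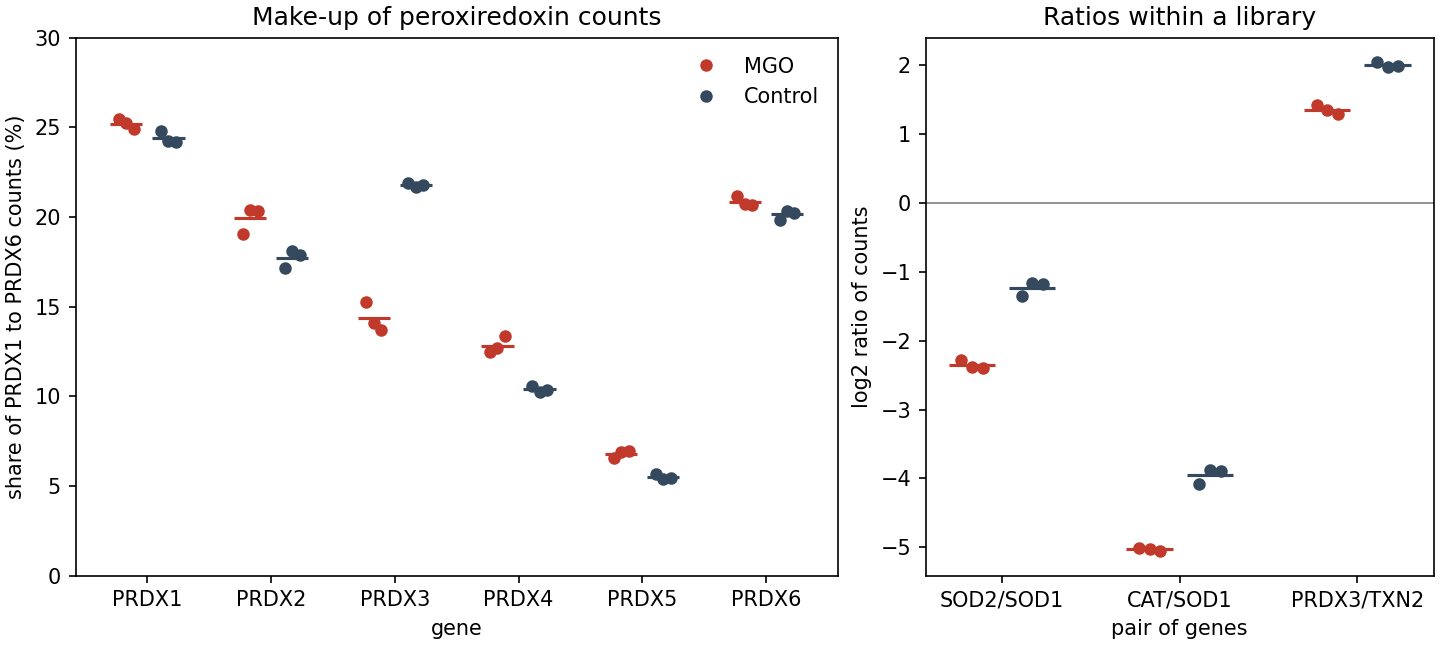
Left, share of the summed PRDX1 to PRDX6 counts taken by each gene (percent); right, log2 ratio of counts for 3 pairs of genes; each point is a library, bars are means of 3, and MGO stands left of Control. The PRDX3 share is about 14% in MGO against about 22% in Control libraries, and all 3 ratios are lower in MGO.

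Set per kilobase of transcript (median length over GENCODE basic transcripts), SOD1 had the highest level of the 10 genes in both groups, at 886 ± 42.0 CPM per kb in MGO and 381 ± 23.7 CPM per kb in Control libraries. CAT had the lowest, at 10.8 ± 0.546 CPM per kb in MGO and 9.86 ± 0.214 CPM per kb in Control libraries. In MGO libraries the order of levels per kb was SOD1, PRDX1, PRDX2, PRDX4, PRDX6, PRDX5, PRDX3, SOD2, TXN2 and CAT. The ranges of PRDX1 and PRDX2, of PRDX4 and PRDX6, and of PRDX6 and PRDX5 overlapped there. In Control libraries the order was SOD1, PRDX1, PRDX2, PRDX3, SOD2, PRDX6, PRDX4, PRDX5, TXN2 and CAT, and the range of PRDX4 overlapped those of PRDX6 and SOD2. PRDX3 thus stood 4th in Control and 7th in MGO libraries. The place of SOD2 is uncertain, since its annotated transcripts run from 815 to 14266 nt, which puts its level anywhere from 195 to 11.2 CPM per kb in MGO and from 183 to 10.4 CPM per kb in Control libraries.

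Fold changes followed transcript length across the 13905 tested genes that had a mean of at least 1 CPM and an annotated length. The median log2 fold change of genes cut into 10 classes of equal size by length was 1.15 in the shortest class (59 to 906 nt), which holds PRDX2 and PRDX5, and −1.63 in the longest (from 5756 nt). PRDX1, PRDX4, SOD1, SOD2 and TXN2 lie in the class of 907 to 1377 nt, whose median was 0.93. The classes of PRDX3, PRDX6 and CAT had medians of 0.68, 0.45 and 0.27. After trends on the length of transcripts, the span of genes and GC content were removed, the members' median was 0.73 against 0.16 for all genes. Of 21748 genes tested there, 9782 rose and 7374 fell. The same 8 members passed the threshold there, at 0.19 for PRDX3 (edgeR adjusted p = 0.00555) and 0.66 to 1.27 for the other 7. The PRDX3 value lay close to the all-gene median of 0.16. SOD2 stood at −0.063 (edgeR adjusted p = 0.195) and CAT at 0.11 (edgeR adjusted p = 0.0844). The SOD2 value there used its median transcript of 990.5 nt.

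**Figure D4:**
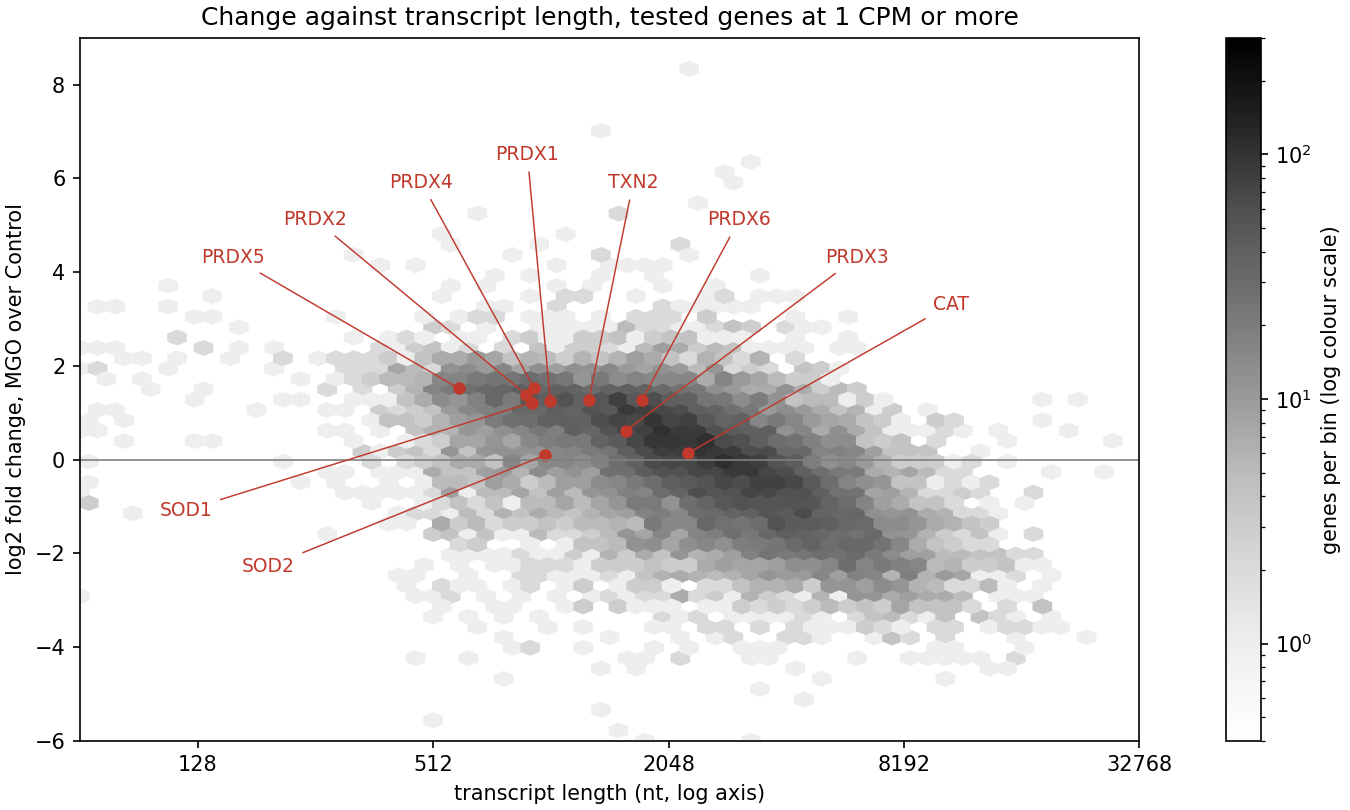
Log2 fold change of MGO over Control against transcript length (log axis) for tested genes with a mean of at least 1 CPM; grey shows how many genes share a bin and red points are the 10 genes. Fold changes fall with length, and SOD2 lies below most genes of its annotated length; 10 genes outside the axes are not drawn.

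Counts of near copies were low, and reads dropped for matching several places were not seen here. The 16 annotated copies of members held 962 counts in all, 0.0416% of the members' counts. SOD2 has long transcripts that run into WTAP on the opposite strand. WTAP, a subunit of the RNA methylation complex, had 36004, 33635 and 33707 counts in MGO and 18996, 24674 and 23291 counts in Control libraries. The library kit keeps strand, but the strand setting of the counting is among the steps the sources used here leave out, so how many SOD2 counts come from WTAP was not tested. PRDX2 lies within the span of HOOK2 on the same strand, which had 1445 to 1798 counts in MGO and 2446 to 2854 in Control libraries, small beside the 57012 to 71421 and 31800 to 41440 counts of PRDX2.

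By the distance between the 6 centred log2 CPM values, the 3 genes nearest to SOD2 among 13391 searched were SPAG6, RAB35 and ZNF749, at 0.031 to 0.043. Those nearest to CAT were PNMA1, SH3GL2 and LNCTAM34A, at 0.042 to 0.053. All 6 had log2 fold changes between 0.088 and 0.17, which follows from choosing them by these same values.

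Of 13 tested genes that serve thioredoxin and repair peroxiredoxins, 6 rose and 6 fell. Their median on the log2 scale was 0.10, or −0.42 with library size alone and −0.14 without Control replicate 1. Those medians are the values of SRXN1, the middle gene by fold change, which had a low level and a wide error (SE 0.23). They restate that gene, described below, and say little about the other genes of the list. TXN, the cytosolic thioredoxin, rose by 1.59 (SE 0.07) on the log2 scale to 330 ± 16.3 CPM in MGO, against 110.0 ± 9.07 CPM in Control libraries (SD, n = 3 each). Of the 3 thioredoxin reductases, which keep thioredoxins reduced, 2 fell and 1 rose. TXNRD1, the cytosolic form, fell to 142 ± 12.8 CPM in MGO, against 198 ± 6.23 CPM in Control libraries (edgeR adjusted p = 6.07e-05), and TXNRD2, the mitochondrial form, rose to 65.4 ± 7.21 CPM in MGO, against 32.6 ± 1.08 CPM in Control libraries (edgeR adjusted p = 1.54e-07). TXNRD3, a form known from testis, fell by 0.50 on the log2 scale (SE 0.07, edgeR adjusted p = 4.87e-05). The TXNRD1 change turned to a rise of 0.39 with the length trend among others removed (edgeR adjusted p = 6.78e-06). With the length trend among others removed, 9 of the 13 rose and 3 fell.

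TXNIP, which binds and inhibits thioredoxin, had the largest rise of that list (3.69, SE 0.07), and GSTP1, known to restore PRDX6 with glutathione, rose by 1.86 (SE 0.09). The largest falls were those of SESN3, a sestrin, at −2.46 (SE 0.08), and NNT, which supplies mitochondrial NADPH, at −1.22 (SE 0.07), or −0.29 with the length trend among others removed. SRXN1, the sulfiredoxin that repairs overoxidised peroxiredoxins, had a log2 fold change of 0.10 (SE 0.23) at a low level and did not pass (edgeR adjusted p = 0.68), and its sign turned without Control replicate 1 (−0.14). SESN2 was listed at 0 in every library, which is not read as absent expression.

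Glutathione peroxidases, glutathione reductase and glutaredoxins showed 6 rises and no fall among 9 tested genes, with a median of 1.07. With library size alone there were 6 rises and 2 falls (median 0.54). With the length trend among others removed there were also 6 rises and 2 falls (median 0.72). GPX1, the cytosolic glutathione peroxidase, rose to 135 ± 21.1 CPM in MGO, against 41.7 ± 0.271 CPM in Control libraries (log2 fold change 1.70, SE 0.10). GPX4, which reduces lipid peroxides in membranes, rose by 1.61 (SE 0.08). GPX5 was listed at 0 and GPX6 had 3 counts in all.

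Genes that move copper or manganese, metals the dismutases use, gave 2 rises and 4 falls among 6 tested. The counts were the same under library size alone and upper quartile scaling. CCS, the copper chaperone of SOD1, rose by 0.89 (SE 0.08) and ATOX1, a copper chaperone for copper pumps, by 1.48 (SE 0.08). The largest falls were those of the manganese importer gene SLC39A14 (−0.76, SE 0.07) and the manganese exporter gene SLC30A10 (−0.74, SE 0.07). The copper importer gene SLC31A1 fell too (−0.52, SE 0.07, edgeR adjusted p = 1.49e-05), as did SLC39A8, a manganese and zinc importer gene (−0.41, SE 0.06). With the length trend among others removed the list gave 4 rises and 2 falls, SLC31A1 standing at 0.27 (edgeR adjusted p = 0.00121) and SLC39A8 at 0.33 (edgeR adjusted p = 7.56e-05). SOD3, the extracellular dismutase, had 2 counts in all.

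Among 13 tested genes of peroxisome assembly, the compartment of catalase, 10 rose and 3 fell (median 0.56), but 5 rose and 6 fell with library size alone (median 0.03). PEX16, which places peroxisomal membrane proteins, rose by 1.32 (SE 0.08). PEX26, a peroxisomal membrane anchor of the import machinery, fell (log2 fold change −0.93, SE 0.06). PEX5, the receptor that carries catalase, had 1 count in all, which is not read as absent expression since most cells use this gene.

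Of 10 tested genes for oxidative folding in the ER, 4 rose and 4 fell, or 2 and 8 with library size alone. With upper quartile scaling 6 rose and 4 fell, and with the length trend among others removed 6 rose and 3 fell. The median was 0.05, or −0.02 without MGO replicate 3, where 11 genes of the list were tested in place of 10. VKORC1, a vitamin K reductase of the ER, rose by 1.60 (SE 0.09) and P4HB, a disulfide isomerase that PRDX4 oxidises, by 0.76 (SE 0.07). The thiol oxidase gene QSOX2 fell (−1.59, SE 0.07, or −0.87 with the length trend among others removed), as did the ER peroxidase gene GPX8 (−1.13, SE 0.07). Of 13 tested genes for enzymes and subunits that produce superoxide or hydrogen peroxide, 2 rose and 7 fell, or 4 and 5 with upper quartile scaling and 5 and 5 with the length trend among others removed. CYBA, a membrane subunit of NADPH oxidases, rose by 1.65 (SE 0.09) and POLDIP2, a partner of NOX4, by 0.94 (SE 0.07). DUOX1 and DUOX2 fell by 2.74 and 2.48 on the log2 scale, at levels under 1 CPM in both groups, or by 1.83 and 1.48 with the length trend among others removed, and HAO1 was listed at 0.

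Of 12 transcription factors and regulators known to act on such genes, 7 rose and 4 fell (median 0.28), against 3 and 7 with library size alone (median −0.24) and 10 and 2 with the length trend among others removed. NFE2L2, which encodes NRF2, rose to 198 ± 11.5 CPM in MGO, against 70.7 ± 1.36 CPM in Control libraries (log2 fold change 1.49, SE 0.06), and CEBPB rose by 1.47 (SE 0.14). The largest falls were those of NFE2L1 (−0.96, SE 0.06) and PPARGC1A, a coactivator of mitochondrial genes (−0.85, SE 0.10).

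**Figure D5:**
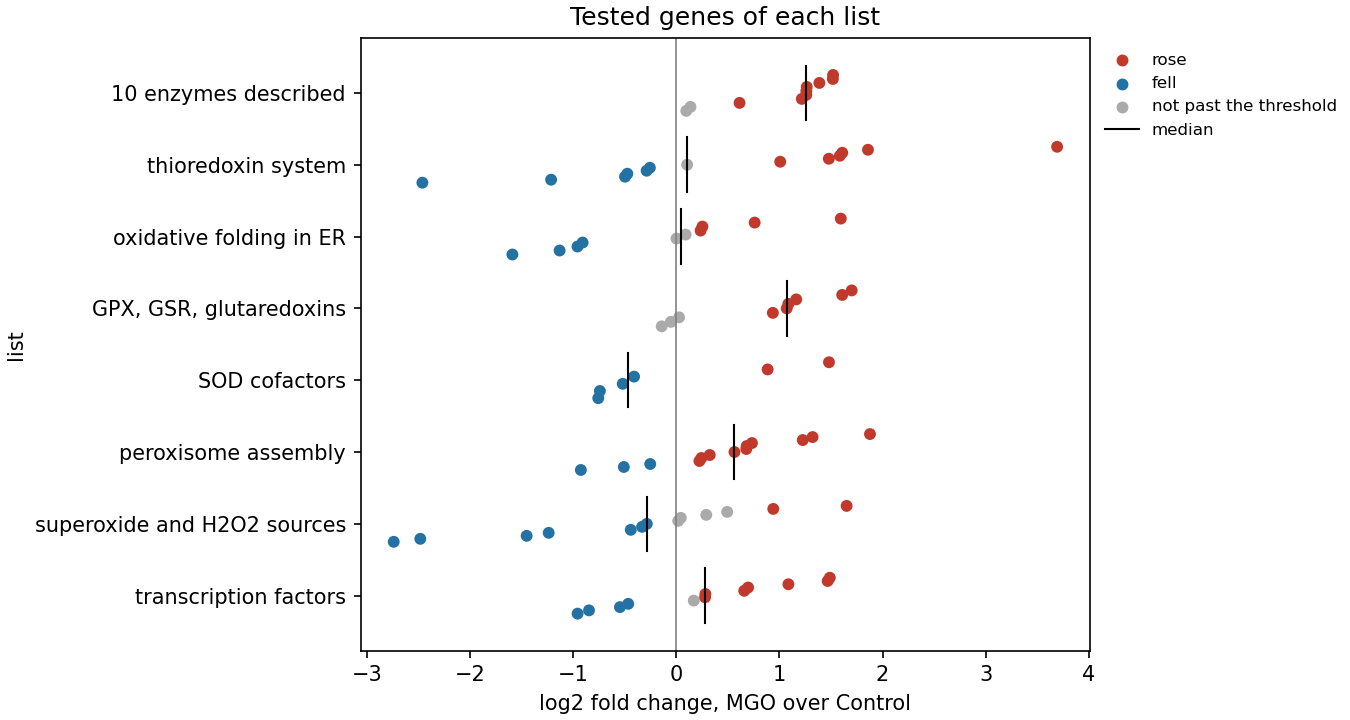
Log2 fold change of MGO over Control for each tested gene of the 10 enzymes and of 7 related lists; colour gives the call at an edgeR adjusted p under 0.05, and the black line is the list's median. Under TMM scaling the 10 enzymes hold 8 rises and no fall, and with library size alone 7 rises and 2 falls; the difference from the related lists was not tested.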

How the data were processed

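RNA was measured by polyA-selected, stranded sequencing in 3 MGO and 3 Control libraries. The authors deposited raw counts for each gene. STAR 2.7.0a, featureCounts 2.0.6 and the build hg38 are named in the submitters' processing notes. Annotation, strand setting and the handling of reads with several matches were not given in the sources used here. The test was run with edgeR 4.0.16 in R 4.3.3 (filterByExpr, TMM scaling, quasi-likelihood test, MGO against Control, Benjamini-Hochberg over all 23109 genes tested). SE is the size of the log2 fold change over the root of F, and 95% intervals use the fit's total degrees of freedom. CPM uses TMM-scaled library sizes, with no spike-in to fix the absolute scale. The steps were run on simulated data with 200 genes changed and 22036 tested. Changes of 1.25, 1.5, 2 and 4-fold were called in the right direction for 26.5%, 57.4%, 70.8% and 100% of genes. There were 3 false calls among unchanged genes. That simulation held few changed genes and no length trend, so it cannot check the scaling between libraries. Positions, lengths and overlaps come from GENCODE 29 on GRCh38 (the assembly of hg38), which matched 56720 rows. SOD2 has more than 1 record there, and the one with most transcripts was used. Alternatives were RLE, library size and upper quartile scaling, other filters, DESeq2 1.42.0, limma-voom (limma 3.58.1), a replicate block, a threshold of 1.2-fold, robust dispersions, each library left out, and removal of trends on the length of transcripts, the span of genes and GC content (splines, mgcv). Within a group, no pair of libraries agreed within sampling noise (the lowest chi-square per degree of freedom was 3.77). In MGO this value was 51.2 and 56.4 for the pairs with replicate 1, against 17.1 for replicates 2 and 3. In Control it was 31.4 and 23.8 for the pairs with replicate 1, against 3.77 for replicates 2 and 3.

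The members and lists were chosen with earlier results of these data known. The rule for named genes took all members, GLO1, and from each list the top 2 rises and top 2 falls among called genes and any gene with at most 3 counts in all. Not every gene picked this way is reported here. TXN, TXNRD1, TXNRD2, TXNRD3, SRXN1, SLC31A1 and SLC39A8 were named for their role after their values were seen, as was WTAP.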

Additional observations from a re-analysis of the deposited data

How the results depend on the processing

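Library size alone gave 5673 raised genes in place of 8964, and 2 lowered members in place of 0 (SOD2 at −0.43 and CAT at −0.39 on the log2 scale). SOD2 also turned negative (−0.063) with trends on length, span and GC content removed, where TXNRD1 turned to 0.39, SLC31A1 to 0.27 and SLC39A8 to 0.33. SRXN1, not past the threshold, turned to −0.42 with library size alone, and ranged from −0.14 (without Control replicate 1) to 0.33 (without Control replicate 3) with a library left out. The difference in the PRDX1 share turned to −0.26 and that in the PRDX6 share to −0.087 percentage points with counts first divided by transcript length, and the MGO minus Control difference in the log2 ratio of PRDX6 to PRDX1 ranged from −0.017 to 0.015 with each library left out in turn. The cause was not tested, except that division by length changes the weight of each gene by construction. With a library left out, 8 members rose, or 9 without MGO replicate 1, and none fell. All-gene counts there ran from 8684 to 9204 rises and from 9062 to 9706 falls. Of 746 recomputed fold changes of members and named genes, 733 kept their direction and their side of the threshold. Replicate numbers were treated as names: deviations of libraries with the same number correlated at 0.061, −0.041 and 0.092 over 14239 genes, and MGO replicate 2 correlated better with another number. A replicate block gave 8 raised and 0 lowered members and changed the all-gene counts to 8869 rises and 9299 falls. CAT, at 2665 to 2976 counts in MGO and 3155 to 4285 in Control libraries, has the least depth of the members.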

Other observations

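The annotated copies PRDX3P2 and PRDX3P4 had counts that ran against those of PRDX3 itself. PRDX3P2, which lies within RCC1 on the opposite strand (chromosome 1, 28526318 to 28527227), had 1, 2 and 3 counts in MGO and 53, 61 and 43 counts in Control libraries. PRDX3P4, within PRICKLE2 on the opposite strand, had 0 counts in each MGO library and 5, 4 and 2 counts in Control libraries. PRDX3P1, within GTPBP1 on the opposite strand (chromosome 22, 38722743 to 38723505), had 173, 97 and 142 counts in MGO and 76, 116 and 114 counts in Control libraries, and its groups overlapped. A processed pseudogene within the span of SOD2, HNRNPH1P1, had 6, 7 and 4 counts in MGO and 53, 82 and 76 counts in Control libraries. These rows were chosen after their values were seen and were not tested.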
